A study of Mus musculus with 14 samples.

Results

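The 62 genes described here are interferon-stimulated genes, taken from a table of 10106 genes by their symbols. The selection used names alone (the Ifi, Ifit, Oas, Gbp and Isg families, the GTPases Irgm1, Irgm2, Igtp and Iigp1, STAT and IRF genes such as Stat2, Irf1, Irf2, Irf7 and Irf9, and further single genes such as Usp18, Rsad2 and Ddx58) and no measured value. They carry 61 symbols, because Gbp11 is listed under 2 identifiers with nearly the same values. The cells were OT-I CD8+ T cells, whose transgenic receptor recognises SIINFEKL, a peptide of ovalbumin. They had been labelled with the dye CFSE and transferred on day 0 into CD45.2+ C57BL6j recipients. The labels give an age of 8 to 12 weeks, without saying whether donors or recipients are meant. On day 1 the mice were injected by vein, and on day 4 OT-I cells were sorted from the spleen as viable CD3e+ CD8+ CD45.1+ cells.

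All 5 groups thus held transferred OT-I cells, and they differed in the injection. Naive mice received saline (3 libraries). The other mice received 223 pmol of ovalbumin (OVA, 3 libraries), erythrocyte-targeted ovalbumin (ERY1-OVA, 3 libraries), the SIINFEKL peptide that MHC class I presents (SIINFEKL, 2 libraries), or erythrocyte-targeted SIINFEKL (TER119-SIINFEKL, 3 libraries). Values are the authors' log2 RPKM, the logarithm of reads scaled by gene length and library size. No count table was used, and depth is therefore unknown. The labels do not say whether a library came from 1 mouse or from several, so the p-values measure the spread between these libraries. That spread was estimated per gene over all 5 groups together, so it is not that of the 2 groups compared alone. Differences are in log2 RPKM with the standard error (SE) from limma. A gene is called, and is said to have risen or fallen, where the Benjamini-Hochberg adjusted p over all 9793 tested genes was under 0.05.

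Interferons signal through receptors that activate Janus kinases and STAT transcription factors. Type I interferons act mainly through a complex that holds STAT2 and IRF9 and binds the interferon-stimulated response element (ISRE). Interferon gamma, which activated CD8+ T cells make, acts mainly through STAT dimers, which bind the gamma-activated sequence (GAS). The induced genes encode sensors of viral nucleic acid, antiviral effectors, GTPases that attack intracellular pathogens, and further transcription factors. Resting T cells hold many of these transcripts at a basal level.

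Promoters were searched for both elements in the RefSeq windows of build GRCm38.p6, which run from 250 bases before to 50 bases after an annotated start. Of the 61 symbols, 41 had an entry, with 51 windows. The ISRE core was searched as TTCNNTTTC and the GAS as TTCNNNGAA, both on either strand, where N is any base. The GAS reads the same on both strands. Matches of the ISRE core can overlap one another, and in the Bst2 window a GAS match overlaps them. The ISRE core lay in 49.0% of the windows of these genes against 8.56% of all 32851 windows of the table, and the GAS in 21.6% against 8.3%. Such matches are letters in a window, not measured binding.

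8 promoters are shown here for genes whose values are described below, 6 of which hold a match and 2 of which (Oasl2 and Ifi30) hold none. Each line gives 120 bases, 5′ to 3′ on the gene's strand, and ends just before the annotated start. For Ifit1 it ends 18 bases earlier, before the start of another annotated transcript. Capitals mark matches to either element. The windows are chr11:53769894-53770013 for Irf1, chr3:142530216-142530335 for Gbp7, chr11:58199436-58199555 for Igtp, chr11:58214857-58214976 for Irgm2, chr19:34640751-34640870 for Ifit1 and chr5:114896814-114896933 for Oasl2, all on the plus strand. Those of Isg15 (chr4:156200819-156200938) and Ifi30 (chr8:70766664-70766783) are on the minus strand. None overlaps an annotated GENCODE exon, except that of Ifi30, where 6330537M06Rik has an exon. The Irgm2 window lies inside the annotated span of that gene, whose other transcripts start further upstream.
Irf1: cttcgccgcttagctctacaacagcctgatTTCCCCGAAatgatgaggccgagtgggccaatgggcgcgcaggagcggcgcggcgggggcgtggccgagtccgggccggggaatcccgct
Gbp7: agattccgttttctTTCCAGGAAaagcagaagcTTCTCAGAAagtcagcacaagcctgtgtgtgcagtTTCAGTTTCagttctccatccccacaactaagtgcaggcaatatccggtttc
Igtp: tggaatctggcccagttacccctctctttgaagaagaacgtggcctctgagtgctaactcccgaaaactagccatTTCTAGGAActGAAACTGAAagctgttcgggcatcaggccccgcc
Irgm2: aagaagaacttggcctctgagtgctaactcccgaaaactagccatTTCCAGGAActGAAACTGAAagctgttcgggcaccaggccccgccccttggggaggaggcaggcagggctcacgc
Ifit1: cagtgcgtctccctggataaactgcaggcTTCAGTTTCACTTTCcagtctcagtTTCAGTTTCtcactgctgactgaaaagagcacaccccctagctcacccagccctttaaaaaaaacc
Isg15: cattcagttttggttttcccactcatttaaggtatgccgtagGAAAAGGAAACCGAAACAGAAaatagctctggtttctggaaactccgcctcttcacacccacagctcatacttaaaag
Oasl2: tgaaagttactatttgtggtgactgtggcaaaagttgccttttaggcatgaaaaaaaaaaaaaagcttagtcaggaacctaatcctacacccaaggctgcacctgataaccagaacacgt
Ifi30: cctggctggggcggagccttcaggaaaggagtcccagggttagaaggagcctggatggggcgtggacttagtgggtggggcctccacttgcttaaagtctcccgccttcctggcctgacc

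In the Irf1 window the capitals are 1 GAS, in Gbp7 they are 2 GAS and then 1 ISRE core, and in Ifit1 and Isg15 they are runs of ISRE cores. Igtp and Irgm2 are neighbours on chromosome 11 and share a stretch of 142 bases with 97.9% identity, from position -92 to 49 around the Igtp start and from -122 to 19 around the Irgm2 start. In both, a GAS stands next to an ISRE core. After OVA, 13 of the 24 genes with an ISRE core and 9 of the 17 without one were lower than Naive, and so were 6 of 11 genes with a GAS and 16 of 30 without. After TER119-SIINFEKL the counts were 9 of 24 and 9 of 17 for the ISRE core, and 6 of 11 and 12 of 30 for the GAS. Of all tested genes 23.1% were lower than Naive after OVA and 23% after TER119-SIINFEKL.

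Of the 62 entries, 61 passed the filter of a mean of 1 RPKM, and Oas2 (mean 0.757 RPKM) did not. Mean levels of the 61 ran from 1.15 RPKM for Iigp1 to 384.8 RPKM for Ifi27l2a. Some values are uncertain because near-identical or overlapping genes may share reads. These are the Gbp genes, the Oas1 genes, the Ifi200 genes, the Trim30 genes, Igtp with Irgm2, and Parp9 with Dtx3l. The identifier listed as Gbp5 is named Gbp2b in GENCODE, and that listed as Gbp6 is named Gm43302 there. The symbols are kept here as deposited.

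The 9 CD8+ T cell markers summed to 3240 to 5000 RPKM per library, and Cd4 lay between 0.182 and 1.31 RPKM. The listed markers of neutrophils and platelets, and Siglech of plasmacytoid dendritic cells, were not analysed here. The MHC class II genes Cd74, H2-Aa, H2-Ab1 and H2-Eb1 summed to 68.3 RPKM in OVA 1 and 34.6 RPKM in TER119-SIINFEKL 1, while the remaining libraries had 6.37 to 26.5 RPKM. The haemoglobin genes Hba-a1 and Hba-a2 summed to 20.3 RPKM in TER119-SIINFEKL 1 and to 1.53 to 10.9 RPKM elsewhere. The cell cycle genes Ccnb1, Mcm5, Mki67 and Top2a summed to 25.4 to 27.1 RPKM in Naive, 25.7 to 79.4 RPKM after SIINFEKL and 240 to 436 RPKM after the other antigens. Each of them was higher in SIINFEKL 1 than in SIINFEKL 2. There Mki67 stood at 21.2 and 2.89 RPKM, and Top2a at 27.6 and 7.75 RPKM. Their part in the results below was not tested. In such bulk samples fewer cells of a type and less RNA per cell cannot be told apart.

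More of the interferon-stimulated genes were called lower than higher against Naive after OVA, TER119-SIINFEKL and ERY1-OVA, and more were called higher than lower after SIINFEKL. After OVA 31 of 61 fell and 2 rose, while 23.1% of all tested genes were lower and 24.4% higher. The median difference of the 61 was -0.51, against -0.04 over all genes. TER119-SIINFEKL gave 25 lower and 3 higher (all genes 23% lower and 24.6% higher), with a median of -0.36. ERY1-OVA gave 15 lower and 5 higher (19% lower and 20.9% higher), with a median of -0.29. SIINFEKL gave 2 lower and 9 higher (8.34% lower and 7.58% higher), with a median of 0.09. These 4 comparisons share the Naive libraries, so they are not independent of each other.

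**Figure D1:**
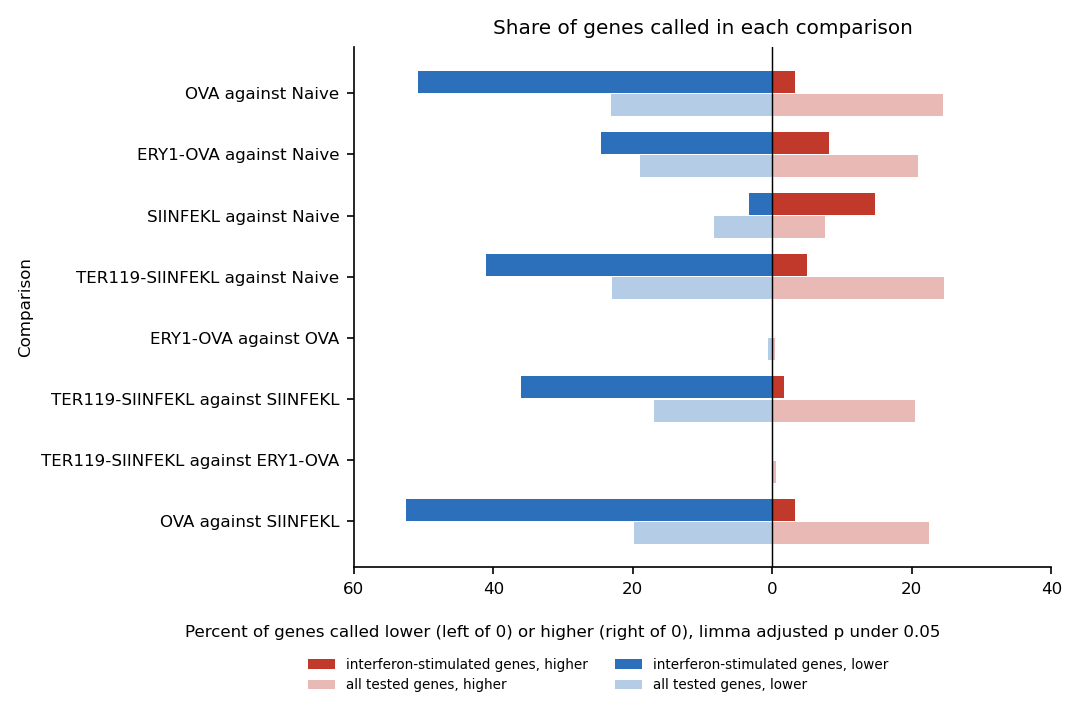
Percent of genes called lower (bars to the left of 0) or higher (bars to the right) in each of 8 comparisons, at a limma adjusted p under 0.05, for the 61 interferon-stimulated genes (full colour) and all 9793 tested genes (pale). After OVA 50.8% of the interferon-stimulated genes were lower and 3.3% higher, against 23.1% and 24.4% of all genes.

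Single libraries moved these counts. The calls over all genes in the same fits are given here for some of them only. The lower count after OVA was 18 without Naive 2 and 18 without OVA 2, and the higher count was 1 in 8 of the 14 fits without 1 library. The lower count after ERY1-OVA was 8 of 61 without Naive 2, where 1373 of all 9793 tested genes were lower. The higher count after ERY1-OVA was 3 without Naive 1 or Naive 3 and 2 without ERY1-OVA 3. In those fits 1792, 1684 and 1656 of all genes were higher. After TER119-SIINFEKL the lower count was 16 without Naive 2 or TER119-SIINFEKL 2 and 13 without TER119-SIINFEKL 3. The higher count after SIINFEKL was 3 without Naive 2, 4 without Naive 3 and 1 without SIINFEKL 1, and the lower count was 9 without SIINFEKL 2 and 1 without Naive 2 or SIINFEKL 1. Other settings moved some of them too. After ERY1-OVA the lower count was 25 after correction for gene length and GC content, where 2647 of all 9716 genes were lower. In a fit of the groups compared alone it was 25 as well, where 2038 of 9793 genes were lower. The higher count was 3 under the correction, where 1835 of all genes were higher. Array weights let limma give libraries unequal weight, and their estimation stopped before it converged. They gave 44 lower and 6 higher after TER119-SIINFEKL (all genes 32.9% and 35.6%) and 3 higher after SIINFEKL. The correction for length and GC content gave 1 higher after TER119-SIINFEKL, where 2234 of 9716 genes were higher. A fit of the groups compared alone gave 5 higher and 1 lower after SIINFEKL. Over all genes the share of calls that were higher depended on scaling: it was 51.3% after OVA but 41.2% when gene length and GC content were corrected for, and 52.4% against 40.9% after ERY1-OVA.

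**Figure D2:**
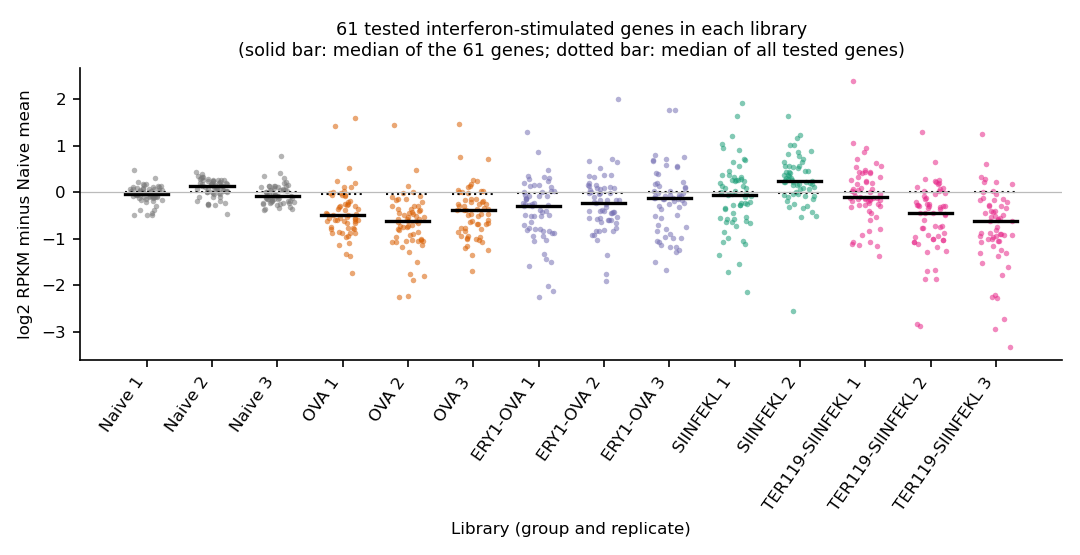
Difference of each of the 61 tested interferon-stimulated genes (points) from its mean in the 3 Naive libraries, in log2 RPKM, for each of the 14 libraries. Solid bars are medians of the 61 genes and dotted bars medians of all tested genes; the solid bar lies at -0.624 in OVA 2 and -0.625 in TER119-SIINFEKL 3, but at -0.112 in TER119-SIINFEKL 1 and 0.248 in SIINFEKL 2.

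The spread between libraries of a group was as follows. The median within-group SD of the 61 genes was 0.369 in TER119-SIINFEKL and 0.281 in SIINFEKL, against 0.176 and 0.177 over all genes, while in the other groups it was 0.194 to 0.201 against 0.143 to 0.171. TER119-SIINFEKL 1 lay above both other libraries of its group in 51 of the 61 genes (83.6%), as it did in 39.2% of all tested genes. Among 15 of them often induced mostly by type I interferon this held for 14, with a median difference of 1.15, and among 15 often induced strongly by interferon gamma for 12, with a median of 0.41. SIINFEKL 1 lay below SIINFEKL 2 in 46 of the 61 genes, as it did in 4784 of all 9793 tested genes. OVA 1 lay above both other libraries of its group in 33 of the 61 genes (54.1%), as it did in 40.2% of all tested genes. TER119-SIINFEKL 1 is also the library with the high haemoglobin values given above, and the natural killer cell markers Klrb1c and Klre1, 2 of 3 listed, summed to 20.4 RPKM there and to 5.0 to 14.9 RPKM elsewhere. Klrb1c alone stood at 14.7 RPKM there, against 4.72 and 6.75 RPKM in the other libraries of its group. Across genes, its deviation from the group mean correlated with gene length at a Spearman rho of -0.46, against 0.495 and 0.217 in TER119-SIINFEKL 2 and 3, while OVA 1 had -0.469. The part of these values in the result was not tested.

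**Figure D3:**
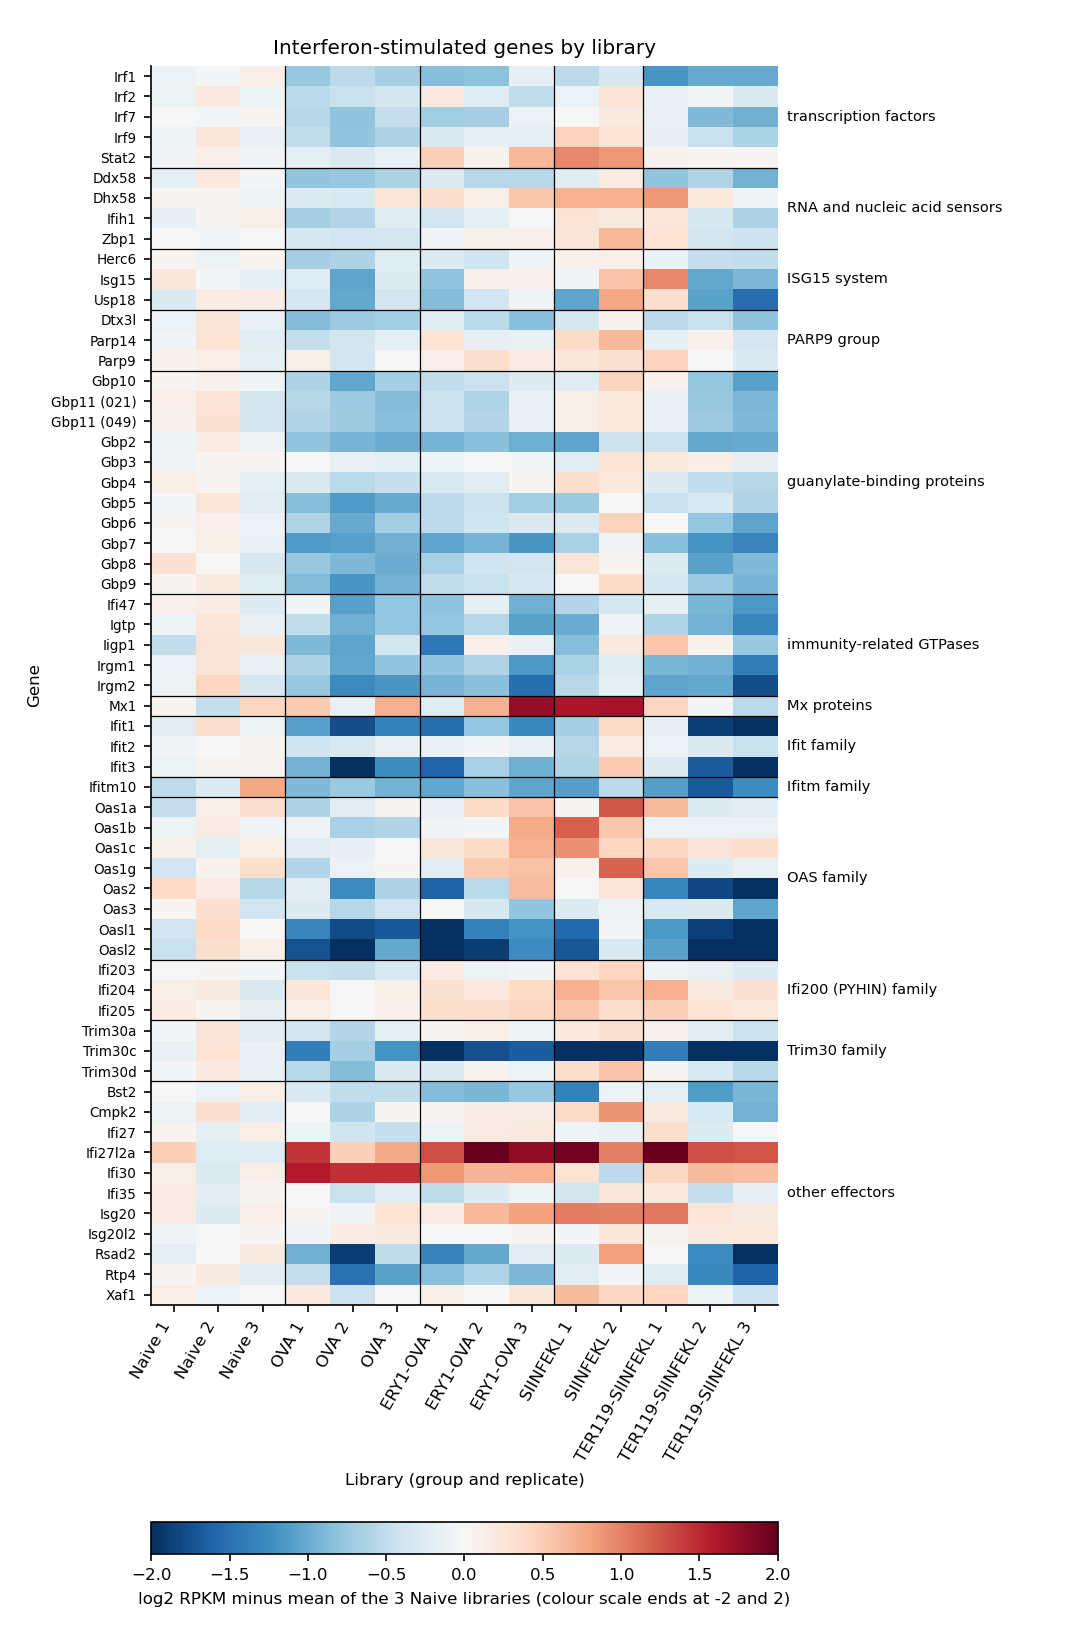
Difference from the mean of the 3 Naive libraries, in log2 RPKM (colour; the scale ends at -2 and 2), of 61 of the 62 entries (rows, by role) in the 14 libraries (columns, by group). Rows of guanylate-binding proteins and immunity-related GTPases are mostly blue in the OVA columns, while Ifi27l2a and Ifi30 are red there.

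The 6 transcription factors carry the response itself, and 5 of them fell after OVA (all genes 23.1%). That count was 3 without Naive 2, Naive 3 or OVA 1 and 2 without OVA 2. Irf1, an early target of interferon signalling that carries the GAS shown above, stood at 6.86, 6.96 and 7.12 log2 RPKM in Naive 1, 2 and 3. It stood at 6.23, 6.46 and 6.32 after OVA, 6.13, 6.16 and 6.82 after ERY1-OVA, 6.45 and 6.65 after SIINFEKL, and 5.82, 5.97 and 5.97 after TER119-SIINFEKL. Every antigen library lay below every Naive library. Irf1 fell after OVA (-0.64 ± 0.16, SE, adjusted p = 0.0049), ERY1-OVA (-0.61 ± 0.16, adjusted p = 0.0083) and TER119-SIINFEKL (-1.06 ± 0.16, adjusted p = 0.00013), while the SIINFEKL value was -0.42 ± 0.18 (adjusted p = 0.12).

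Stat2 and Irf9, both part of the type I complex, followed another order. Stat2 stood at 2.80, 3.00 and 2.80 log2 RPKM in Naive, 2.68, 2.57 and 2.73 after OVA, 3.35, 2.94 and 3.53 after ERY1-OVA, 3.82 and 3.74 after SIINFEKL, and 2.94, 2.89 and 2.89 after TER119-SIINFEKL. Both SIINFEKL libraries lay above all others. The gene rose after SIINFEKL (0.91 ± 0.15, adjusted p = 0.002), and its differences from Naive were -0.21 ± 0.14 after OVA (adjusted p = 0.23) and 0.04 ± 0.14 after TER119-SIINFEKL (adjusted p = 0.83). After ERY1-OVA it rose by 0.41 ± 0.14 (adjusted p = 0.032), with values that overlapped Naive and a call lost without Naive 1, Naive 3, ERY1-OVA 1 or ERY1-OVA 3 (0.28 to 0.37).

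Irf9 was highest after SIINFEKL (5.43 and 5.26 log2 RPKM) and had its lowest mean after OVA (4.49, 4.19 and 4.37), with Naive at 4.91, 5.21 and 4.85. It fell after OVA by 0.64 ± 0.14 (adjusted p = 0.0018). The value after TER119-SIINFEKL was -0.41 ± 0.14, a call lost without Naive 2, TER119-SIINFEKL 2 or TER119-SIINFEKL 3 (-0.39 to -0.30).

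Irf7, the amplifier of type I interferon production, stood at 4.77, 4.72 and 4.77 log2 RPKM in Naive, 4.19, 3.95 and 4.28 after OVA and 4.61, 3.87 and 3.80 after TER119-SIINFEKL. The fall after OVA was -0.61 ± 0.20 (adjusted p = 0.022), with the call lost without Naive 1, Naive 3 or OVA 2, and that after TER119-SIINFEKL -0.66 ± 0.20 (adjusted p = 0.014), with the call lost without TER119-SIINFEKL 2 or 3. Irf2, which restrains interferon responses, fell after OVA (-0.45 ± 0.16, adjusted p = 0.032), a call lost without Naive 2, Naive 3 or any of the 3 OVA libraries (-0.49 to -0.36).

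**Figure D4:**
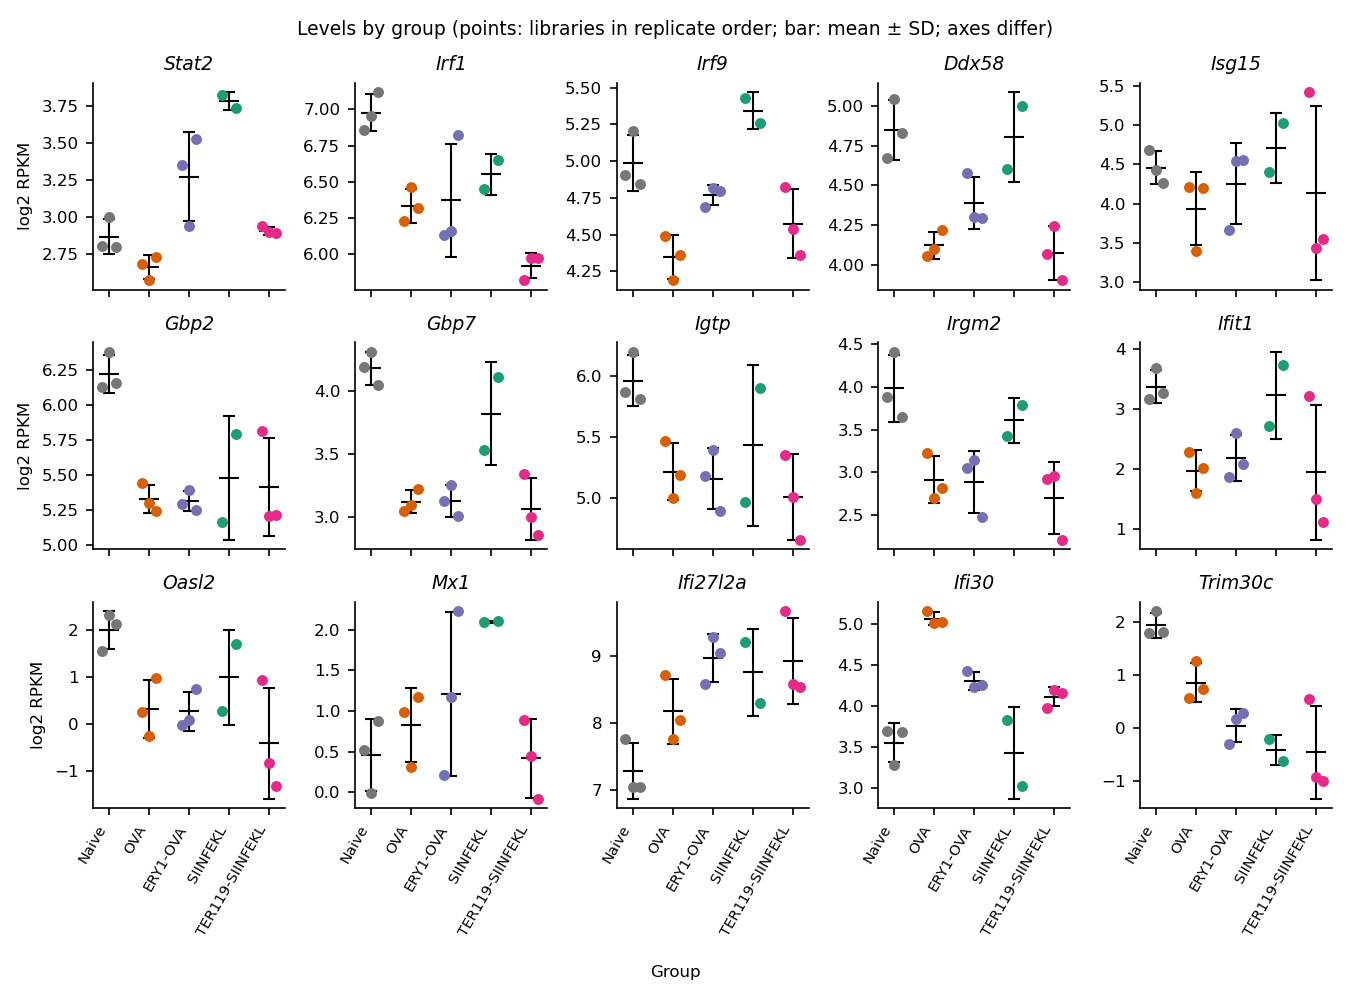
Level in log2 RPKM (vertical axes, which differ between panels) of 15 interferon-stimulated genes in the 5 groups; points are libraries in replicate order and bars the mean ± SD (n = 3, and n = 2 for SIINFEKL). Gbp7 and Ddx58 are low in all 3 libraries of OVA and TER119-SIINFEKL, Stat2 is highest in both SIINFEKL libraries, and Ifi30 is highest in the 3 OVA libraries.

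Sensors of foreign nucleic acid had 1 of 4 lower after OVA (all genes 23.1%), namely Ddx58, which encodes the RNA sensor RIG-I. It stood at 4.67, 5.05 and 4.83 log2 RPKM in Naive, 4.05, 4.10 and 4.22 after OVA, 4.58, 4.30 and 4.29 after ERY1-OVA, 4.60 and 5.00 after SIINFEKL, and 4.07, 4.25 and 3.90 after TER119-SIINFEKL. All libraries of OVA, ERY1-OVA and TER119-SIINFEKL lay below Naive, whereas SIINFEKL 2 lay within its range. It fell by 0.73 ± 0.14 after OVA (adjusted p = 0.00098) and by 0.78 ± 0.14 after TER119-SIINFEKL (adjusted p = 0.00055). After ERY1-OVA it was -0.46 ± 0.14 (adjusted p = 0.019), a call lost without Naive 2, ERY1-OVA 2 or ERY1-OVA 3 (-0.41 to -0.36).

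The other RNA sensors, Ifih1 (MDA5) and Dhx58 (LGP2), and the Z-nucleic acid sensor Zbp1 were not called against Naive after any antigen. Zbp1 stood at 5.82, 5.78 and 5.82 log2 RPKM in Naive, 5.49, 5.42 and 5.46 after OVA, and 6.06 and 6.46 after SIINFEKL. These values did not overlap, with differences from Naive of -0.35 ± 0.16 (adjusted p = 0.083) and 0.45 ± 0.18 (adjusted p = 0.095). The SD of Zbp1 was 0.019 in Naive and 0.033 after OVA, but 0.281 after SIINFEKL and 0.38 after TER119-SIINFEKL. The SE draws on all of these groups.

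Isg15 encodes a ubiquitin-like protein that is conjugated with the help of ligases such as Herc6 and removed by Usp18, which also damps type I receptor signalling. Isg15 stood at 4.68, 4.43 and 4.26 log2 RPKM in Naive, 4.21, 3.40 and 4.20 after OVA, and 5.41, 3.44 and 3.55 after TER119-SIINFEKL. In the last group the first library lay above all Naive libraries and the others below them. Neither Isg15 nor Usp18 was called in any comparison. Herc6 fell after OVA (-0.51 ± 0.15, adjusted p = 0.011) and had -0.36 ± 0.15 after TER119-SIINFEKL (adjusted p = 0.053).

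Guanylate-binding proteins, GTPases that coat pathogen vacuoles and are typically induced by interferon gamma, were mostly lower than Naive after OVA and TER119-SIINFEKL. After OVA 10 of 11 entries fell (all genes 23.1%), with Gbp3 the exception (-0.11 ± 0.13, adjusted p = 0.52). TER119-SIINFEKL gave 8 of 11 lower (all genes 23%), ERY1-OVA 3 (19%) and SIINFEKL 1 (8.34%), and none was higher. Without Naive 2 the lower counts were 6 after OVA and 5 after TER119-SIINFEKL. The latter was also 4 without Naive 1 or TER119-SIINFEKL 3 and 5 without TER119-SIINFEKL 2, and the ERY1-OVA count was 5 without Naive 3 or TER119-SIINFEKL 1. The 2 Gbp11 entries, which may share reads, count separately here. Gbp7, whose promoter with 3 matches is shown above, stood at 4.19, 4.30 and 4.04 log2 RPKM in Naive, 3.05, 3.10 and 3.22 after OVA, 3.13, 3.26 and 3.01 after ERY1-OVA, 3.53 and 4.11 after SIINFEKL, and 3.34, 3.01 and 2.86 after TER119-SIINFEKL. All libraries of OVA, ERY1-OVA and TER119-SIINFEKL were below every Naive library. It fell by -1.05 ± 0.16 after OVA (adjusted p = 0.00014), -1.05 ± 0.16 after ERY1-OVA (adjusted p = 0.00019) and -1.11 ± 0.16 after TER119-SIINFEKL (adjusted p = 8.4e-05).

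Gbp2 was the one guanylate-binding protein called after all 4 antigens. Its levels were 6.13, 6.38 and 6.16 log2 RPKM in Naive, 5.44, 5.30 and 5.24 after OVA, 5.29, 5.39 and 5.25 after ERY1-OVA, 5.17 and 5.79 after SIINFEKL, and 5.82, 5.21 and 5.22 after TER119-SIINFEKL. No antigen library reached the lowest Naive value. The differences were -0.90, -0.91, -0.75 and -0.81 in that order, each ± 0.17 to 0.20 (SE), with adjusted p of 0.001, 0.0011, 0.022 and 0.0019. The call after SIINFEKL was lost without Naive 2 (-0.67) or SIINFEKL 1 (-0.43).

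Gbp9 and Gbp5 also fell after OVA, by -0.99 ± 0.16 (adjusted p = 0.0003) and -1.0 ± 0.18 (adjusted p = 0.00069). Gbp9 stood at 5.43, 5.56 and 5.13 log2 RPKM in Naive and 4.50, 4.20 and 4.43 after OVA, without overlap, but at 5.38 and 5.75 after SIINFEKL, within or above the Naive range.

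Immunity-related GTPases act against vacuolar pathogens and are targets of interferon gamma. Of these 5 genes, 3 were lower after OVA (all genes 23.1%) and 3 after ERY1-OVA (19%). TER119-SIINFEKL gave 4 lower (23%) and SIINFEKL none (8.34%). Irgm2 stood at 3.88, 4.41 and 3.65 log2 RPKM in Naive, 3.22, 2.70 and 2.82 after OVA, 3.05, 3.14 and 2.48 after ERY1-OVA, 3.42 and 3.79 after SIINFEKL, and 2.92, 2.96 and 2.21 after TER119-SIINFEKL. Of the antigen libraries, SIINFEKL 2 alone reached the Naive range. It fell by -1.07 ± 0.25 (adjusted p = 0.0036), -1.09 ± 0.25 (adjusted p = 0.0039) and -1.29 ± 0.25 (adjusted p = 0.001) after OVA, ERY1-OVA and TER119-SIINFEKL. Irgm1, a regulator of the other GTPases, fell after the same 3 antigens by -0.81 ± 0.18, -0.85 ± 0.18 and -1.09 ± 0.18 (adjusted p = 0.0023, 0.0022 and 0.00027).

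Igtp, which shares the promoter stretch with Irgm2, stood at 5.86, 6.19 and 5.81 log2 RPKM in Naive and 5.35, 5.00 and 4.65 after TER119-SIINFEKL. It fell there by -0.95 ± 0.23 (adjusted p = 0.0046). After OVA the value was -0.74 ± 0.23, a call lost without Naive 2, OVA 2 or OVA 3, and the ERY1-OVA value of -0.80 ± 0.23 lost its call without Naive 2 or ERY1-OVA 3. Ifi47, a further GTPase, had -0.75 ± 0.28 after TER119-SIINFEKL (adjusted p = 0.042), a call lost without Naive 1, Naive 2, OVA 3, TER119-SIINFEKL 2 or TER119-SIINFEKL 3 (-0.75 to -0.55). Iigp1, at a low mean level of 1.15 RPKM, was not called after any antigen.

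Ifit and Oas-like genes, classic type I targets, had large differences and a wide spread. Ifit1, which binds viral RNA and carries 3 ISRE cores above, stood at 3.17, 3.69 and 3.27 log2 RPKM in Naive, 2.29, 1.61 and 2.02 after OVA, 1.87, 2.61 and 2.09 after ERY1-OVA, 2.72 and 3.74 after SIINFEKL, and 3.22, 1.50 and 1.12 after TER119-SIINFEKL. The OVA and ERY1-OVA libraries lay below Naive, while TER119-SIINFEKL 1 lay within the Naive range. The gene fell by -1.40 ± 0.44 after OVA (adjusted p = 0.018), a call lost without Naive 2 (-1.25) or OVA 2 (-1.22), and by -1.43 ± 0.44 after TER119-SIINFEKL (adjusted p = 0.016), a call lost without Naive 2, TER119-SIINFEKL 2 or TER119-SIINFEKL 3 (-1.27 to -1.02). The fall of -1.19 ± 0.44 after ERY1-OVA (adjusted p = 0.044) lost its call without any 1 of the Naive libraries, OVA 2, OVA 3, ERY1-OVA 1 or ERY1-OVA 3 (-1.29 to -1.03).

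Ifit3 had -1.48 ± 0.46 after OVA (adjusted p = 0.017, lost without OVA 2 at -1.10) and -1.41 ± 0.46 after TER119-SIINFEKL (adjusted p = 0.022, lost without Naive 2, Naive 3, TER119-SIINFEKL 2 or TER119-SIINFEKL 3 at -1.38 to -0.97). Ifit2 was not called after any antigen (-0.29 to -0.10).

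Oasl1 and Oasl2 encode oligoadenylate synthetase-like proteins. Oasl2 stood at 1.56, 2.33 and 2.12 log2 RPKM in Naive, 0.25, -0.24 and 0.98 after OVA, -0.01, 0.10 and 0.75 after ERY1-OVA, 0.29 and 1.70 after SIINFEKL, and 0.93, -0.82 and -1.32 after TER119-SIINFEKL. Only SIINFEKL 2 reached the Naive range. It fell by -2.40 ± 0.53 after TER119-SIINFEKL (adjusted p = 0.0022). The falls after OVA (-1.67 ± 0.53, adjusted p = 0.019, lost without Naive 2, Naive 3 or OVA 2) and ERY1-OVA (-1.72 ± 0.53, adjusted p = 0.019, lost without Naive 2, Naive 3, ERY1-OVA 1 or ERY1-OVA 2) were less stable. Oasl1 fell after OVA (-1.60 ± 0.43, adjusted p = 0.0078) and TER119-SIINFEKL (-1.91 ± 0.43, adjusted p = 0.0026), and the fall after ERY1-OVA (-1.55 ± 0.43, adjusted p = 0.012) lost its call without Naive 2 (-1.36). The Oasl2 window shown above holds neither element.

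The other oligoadenylate synthetase genes tested did not share the falls of Oasl1 and Oasl2. None of Oas1a, Oas1b, Oas1c, Oas1g and Oas3 fell against Naive after any antigen. Oas1b and Oas1c rose after SIINFEKL, by 0.87 ± 0.26 (adjusted p = 0.038, lost without any 1 Naive library, SIINFEKL 1 or TER119-SIINFEKL 3, at 0.55 to 0.95) and 0.67 ± 0.18 (adjusted p = 0.021, lost without Naive 2 at 0.58 or SIINFEKL 1 at 0.43). Oas1c also rose after ERY1-OVA (0.44 ± 0.16, adjusted p = 0.039), a call lost without Naive 1, Naive 2, ERY1-OVA 2, ERY1-OVA 3 or TER119-SIINFEKL 3 (0.30 to 0.47). Oas2, which was too low to be tested, ranged from -2.2 to 0.60 log2 RPKM.

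Mx1, an antiviral GTPase that is not functional as a protein in most inbred mouse strains, stood at 0.52, -0.01 and 0.87 log2 RPKM in Naive, 0.99, 0.31 and 1.18 after OVA, 0.21, 1.17 and 2.23 after ERY1-OVA, 2.09 and 2.11 after SIINFEKL, and 0.89, 0.44 and -0.08 after TER119-SIINFEKL. The 2 SIINFEKL libraries lay above all but ERY1-OVA 3. The rise after SIINFEKL was 1.64 ± 0.48 (adjusted p = 0.033), a call lost without Naive 1, Naive 2 or either SIINFEKL library (1.40 to 1.67).

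Ifi30 and Ifi27l2a were the 2 genes that rose after OVA. Ifi30 encodes a lysosomal thiol reductase that prepares antigens for presentation. It stood at 3.69, 3.29 and 3.69 log2 RPKM in Naive, 5.15, 5.01 and 5.02 after OVA, 4.42, 4.23 and 4.25 after ERY1-OVA, 3.82 and 3.03 after SIINFEKL, and 3.98, 4.20 and 4.16 after TER119-SIINFEKL. All libraries of OVA, ERY1-OVA and TER119-SIINFEKL lay above Naive, and those of OVA above all others. It rose by 1.5 ± 0.17 (adjusted p = 1.5e-05) after OVA, 0.75 ± 0.17 (adjusted p = 0.0041) after ERY1-OVA and 0.56 ± 0.17 (adjusted p = 0.017) after TER119-SIINFEKL, the last call being lost without Naive 2, TER119-SIINFEKL 2 or 3, or after correction for length and GC content (0.30). Ifi30 is also abundant in antigen-presenting cells. The MHC class II genes summed to 68.3 RPKM in OVA 1. Of them Cd74 stood at 34.4, 9.17 and 5.87 RPKM in OVA 1, 2 and 3, against 6.03 to 15.1 RPKM in Naive. Itgax, the 1 of 5 dendritic cell markers measured here, stood at 3.2, 2.42 and 2.55 RPKM after OVA, above the Naive range of 0.797 to 2.36 RPKM. Of the 3 of 8 macrophage and monocyte markers measured here, Cd68 stood at 4.09, 6.21 and 3.91 RPKM after OVA, above the Naive range of 1.82 to 3.24 RPKM, and Lyz2 at 11.5, 3.89 and 1.99 RPKM against 1.68 to 3.83 RPKM. Ly6c2 stood at 348 to 399 RPKM after OVA against 354 to 625 RPKM in Naive. After ERY1-OVA Cd68 stood at 4.46, 4.61 and 10.3 RPKM. After SIINFEKL it stood at 5.64 and 2.63 RPKM, and after TER119-SIINFEKL at 5.37, 6.12 and 6.6 RPKM. The B cell marker Cd79b stood at 15, 10 and 8.09 RPKM after OVA against 8.12 to 9.96 RPKM in Naive. The part of such cells in the rise of Ifi30 was not tested.

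Ifi27l2a, which encodes a small interferon-induced protein, was the most abundant of the 62. It stood at 7.76, 7.04 and 7.04 log2 RPKM in Naive, 8.71, 7.76 and 8.04 after OVA, 8.58, 9.28 and 9.05 after ERY1-OVA, 9.21 and 8.30 after SIINFEKL, and 9.67, 8.58 and 8.54 after TER119-SIINFEKL. Apart from OVA 2, every antigen library lay above Naive. It rose by 1.69 ± 0.35 after ERY1-OVA (adjusted p = 0.0019) and 1.64 ± 0.35 after TER119-SIINFEKL (adjusted p = 0.0017). The rises after SIINFEKL (1.47 ± 0.39, adjusted p = 0.023) and OVA (0.89 ± 0.35, adjusted p = 0.049) were less stable. The SIINFEKL call was lost without Naive 2, Naive 3 or SIINFEKL 1. The OVA call was lost without Naive 2 or 3, OVA 1 or 3, ERY1-OVA 2 or 3, or TER119-SIINFEKL 2 or 3 (0.62 to 0.95).

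Trim30c was lower than Naive after every antigen. It belongs to a cluster of Trim30 genes on chromosome 7 and stood at 1.81, 2.21 and 1.81 log2 RPKM in Naive, 0.56, 1.28 and 0.75 after OVA, -0.30, 0.18 and 0.28 after ERY1-OVA, -0.21 and -0.61 after SIINFEKL, and 0.56, -0.93 and -1.0 after TER119-SIINFEKL. No antigen library reached the Naive range. It fell by -1.89 ± 0.37 after ERY1-OVA (adjusted p = 0.0012), -2.36 ± 0.41 after SIINFEKL (adjusted p = 0.0023) and -2.40 ± 0.37 after TER119-SIINFEKL (adjusted p = 0.00015), and by -1.08 ± 0.37 after OVA (adjusted p = 0.026, lost without Naive 2, OVA 1 or OVA 3, at -1.02 to -0.93). Its neighbours Trim30a and Trim30d had -0.39 ± 0.15 and -0.57 ± 0.18 after OVA (adjusted p = 0.049 and 0.016). The call of Trim30a was lost in 10 of the 14 fits without 1 library (the lowest size, -0.26, without Naive 2), and that of Trim30d without Naive 2 (-0.47) or OVA 2 (-0.42).

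The remaining members are summarised. The Ifi200 genes, of a family that includes DNA sensors, all rose after SIINFEKL: Ifi203 by 0.35 ± 0.11, Ifi204 by 0.64 ± 0.18 and Ifi205 by 0.45 ± 0.12 (adjusted p = 0.049, 0.029 and 0.026). The call of Ifi203 was lost in 12 of the 14 fits without 1 library (0.27 without SIINFEKL 2), that of Ifi204 without Naive 3 (0.49) or SIINFEKL 1 (0.56), and that of Ifi205 without Naive 2, Naive 3 or SIINFEKL 1 (0.35 to 0.46). Ifi205 also rose after ERY1-OVA (0.36 ± 0.11, adjusted p = 0.02, lost without Naive 3 or ERY1-OVA 3) and TER119-SIINFEKL (0.32 ± 0.11, adjusted p = 0.028, lost without Naive 2, Naive 3 or TER119-SIINFEKL 1). Ifi203 fell after OVA (-0.40 ± 0.10, adjusted p = 0.0048). Dtx3l, the partner ligase of the ADP-ribosyltransferase Parp9, fell after OVA (-0.76 ± 0.17, adjusted p = 0.0024), while Parp9 had -0.08 ± 0.17 (adjusted p = 0.71). The falls of Dtx3l after ERY1-OVA (-0.54 ± 0.17, adjusted p = 0.022) and TER119-SIINFEKL (-0.59 ± 0.17, adjusted p = 0.01) lost their calls without Naive 2, and the first also without ERY1-OVA 2 or 3 and the second without TER119-SIINFEKL 3. Ifitm10, the 1 listed gene of a family of membrane proteins, fell after OVA, ERY1-OVA and TER119-SIINFEKL (-0.86, -0.98 and -1.34, each ± 0.27, adjusted p = 0.018, 0.011 and 0.0012). The OVA call was lost without Naive 3 (-0.47) or OVA 3 (-0.81), and without Naive 3 the ERY1-OVA difference was -0.59, still called. Isg20, an exonuclease gene, rose after SIINFEKL (1.02 ± 0.25, adjusted p = 0.015, lost without Naive 2 or SIINFEKL 1). Bst2, which encodes tetherin, fell after ERY1-OVA (-0.85 ± 0.26, adjusted p = 0.021, lost without Naive 3 or ERY1-OVA 2) and TER119-SIINFEKL (-0.74 ± 0.26, adjusted p = 0.034, lost without any 1 Naive library, TER119-SIINFEKL 2 or TER119-SIINFEKL 3). Rtp4, a chaperone of receptors, fell after OVA and TER119-SIINFEKL (-1.01 ± 0.30 and -1.05 ± 0.30, adjusted p = 0.014 and 0.011). These calls were lost without Naive 2 (-0.93) or OVA 2 (-0.77), and without TER119-SIINFEKL 3 (-0.77). The antiviral enzyme gene Rsad2 (viperin) had -1.12 ± 0.51 after OVA (adjusted p = 0.085) and 0.27 ± 0.57 after SIINFEKL (adjusted p = 0.78). Cmpk2, Xaf1, Ifi27, Ifi35, Isg20l2, Parp9 and Parp14 were not called against Naive after any antigen.

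The 2 soluble antigens were compared directly to see how protein and peptide differed. OVA gave 32 of 61 genes lower than SIINFEKL and 2 higher, while 19.9% of all tested genes were lower and 22.4% higher, and the median of the 61 was -0.69. The lower count was 20 without OVA 2 and 17 without SIINFEKL 2, and the higher count 1 without OVA 2. With array weights 20 were lower (all genes 15.4%). Of all calls 52.9% were higher, or 42.6% after correcting for length and GC content. All 4 sensors, 9 of 11 guanylate-binding proteins, and 4 of 6 transcription factors were lower, and no immunity-related GTPase was. Without SIINFEKL 2 these counts were 1 sensor, 5 guanylate-binding proteins and 2 transcription factors, and without OVA 2 the last was also 2. Stat2 was lower by -1.12 ± 0.15 (adjusted p = 9.5e-05), Irf9 by -0.99 ± 0.15 (adjusted p = 0.0002), Gbp9 by -1.19 ± 0.18 (adjusted p = 0.00022), Ifi203 by -0.75 ± 0.11 (adjusted p = 0.00017), Trim30d by -1.02 ± 0.20 (adjusted p = 0.0011) and Oas1b by -1.31 ± 0.26 (adjusted p = 0.0015), and their values did not overlap. Ifi30 was higher by 1.63 ± 0.19 (adjusted p = 3.1e-05) and Trim30c by 1.27 ± 0.41 (adjusted p = 0.022, lost without OVA 2 or SIINFEKL 2, after quantile normalization, or after correction for length and GC content). By group mean, 33 of the 62 entries were highest after SIINFEKL and 24 in Naive, and 32 were lowest after OVA and 21 after TER119-SIINFEKL.

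Erythrocyte targeting was compared within protein and within peptide. ERY1-OVA against OVA gave no call among the 61 genes, higher or lower, where limma called 0.408% of all genes higher and 0.654% lower. Over fits without 1 library the 40 higher and 64 lower calls among all genes ranged from 0 and 0 without ERY1-OVA 1 to 142 and 218 without SIINFEKL 2, with 141 and 218 without SIINFEKL 1. At an unadjusted p under 0.05 there were 14 higher and 2 lower, while of all genes 17.2% passed that p in either direction. With array weights 14 were called higher and 2 lower, against 11.6% and 13.6% of all genes. Without either SIINFEKL library 3 were higher and 1 lower, and without TER119-SIINFEKL 1 there was 1 of each. The point estimates were higher in 49 and lower in 12, with a median of 0.27. Of all calls in this comparison 38.5% were higher, against 61.4% after quantile normalization and 49.6% after correction for length and GC content. The smallest adjusted p-values belonged to Stat2 (0.61 ± 0.14) and Ifi30 (-0.76 ± 0.17), both at 0.051, and neither gene's values overlapped.

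TER119-SIINFEKL against SIINFEKL gave 22 lower and 1 higher, while 17.0% of all genes were lower and 20.4% higher, with a median of -0.57 for the 61. Stat2 fell by 0.87 ± 0.15 (adjusted p = 0.00076), Irf9 by 0.77 ± 0.15 (adjusted p = 0.0015), Gbp4 by 0.71 ± 0.14 (adjusted p = 0.0018), Gbp9 by 0.85 ± 0.18 (adjusted p = 0.0026), Ddx58 by 0.73 ± 0.16 (adjusted p = 0.0027) and Ifi203 by 0.52 ± 0.11 (adjusted p = 0.0028). Values of these genes did not overlap between the groups. Ifi30 was the 1 gene that rose (0.68 ± 0.19, adjusted p = 0.014), a call lost without SIINFEKL 2 (0.29) or after correction for length and GC content (0.31). The lower count was 9 without SIINFEKL 2, 11 without TER119-SIINFEKL 3 and 35 without TER119-SIINFEKL 1. It was 36 with array weights (all genes 13.4%) and 13 in a fit of these groups alone.

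The difference between targeted and soluble antigen differed between the protein pair and the peptide pair, tested as an interaction. ERY1 targeted the protein and TER119 the peptide, so antigen form and targeting agent cannot be told apart here. The same contrast is the gap between the targeted groups minus that between the soluble groups. TER119-SIINFEKL against ERY1-OVA gave no call among the 61 genes. OVA against SIINFEKL gave 32 lower and 2 higher, with 2 SIINFEKL libraries. The difference, protein minus peptide, was above 0 at the called level in 25 of the 61 genes and below 0 in 1, against 17.1% and 20.6% of all tested genes, with a median of 0.85. The 25 comprised 8 of 11 guanylate-binding protein entries and 4 of 6 transcription factors, but none of the immunity-related GTPases or Ifit genes. The first of these counts was 5 without ERY1-OVA 2, SIINFEKL 2 or TER119-SIINFEKL 3, and the second was 2 without SIINFEKL 2, TER119-SIINFEKL 2 or TER119-SIINFEKL 3. Stat2 had 0.61 with protein and -0.87 with peptide, an interaction of 1.48 ± 0.21 (adjusted p = 0.00017). Irf9 had 0.42 and -0.77, an interaction of 1.19 ± 0.20 (adjusted p = 0.00066), and Gbp9 0.57 and -0.85, an interaction of 1.42 ± 0.24 (adjusted p = 0.00069). Ifi30 was the gene in the other direction, with -0.76 and 0.68. Over fits without 1 library the count above 0 was 17 to 36, and that below 0 was 2 without SIINFEKL 2.

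**Figure D5:**
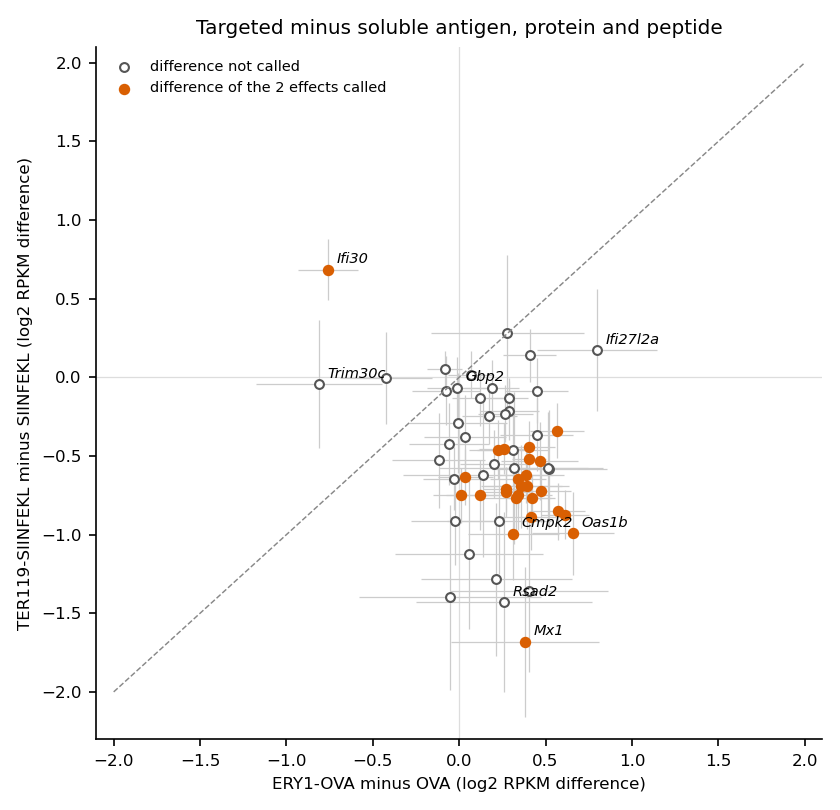
Difference of targeted minus soluble antigen for each of the 61 genes with peptide (vertical axis) and with protein (horizontal axis), in log2 RPKM; grey bars are the SE, filled points the 26 genes whose 2 differences were called as different, and the dashed line marks equal differences. Most filled points lie to the right of 0 and below 0, and Ifi30 lies at the upper left.

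The 2 targeted antigens were compared with each other as well. TER119-SIINFEKL against ERY1-OVA gave no call among the 61 genes, where limma called 0.49% of all genes higher and 0.0715% lower. Among all genes no call was left without ERY1-OVA 2, TER119-SIINFEKL 2 or TER119-SIINFEKL 3, and the count was 136 higher and 27 lower without SIINFEKL 1. At an unadjusted p under 0.05 there were 0 higher and 4 lower, while 10.9% of all genes passed that p in either direction. With array weights 1 was higher and 40 lower, against 14.3% and 11% of all genes. The median was -0.18.

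Other genes of the pathway were followed in lists of their own. Of all tested genes 23.1% fell and 24.4% rose after OVA, 19% and 20.9% after ERY1-OVA, 8.34% and 7.58% after SIINFEKL, and 23% and 24.6% after TER119-SIINFEKL, and the counts of each list stand beside these shares. Of the 8 receptor and kinase genes, 4 fell and 1 rose after OVA, as after TER119-SIINFEKL, 2 fell and 1 rose after ERY1-OVA, and 2 fell and 3 rose after SIINFEKL. Ifngr2, a chain of the interferon gamma receptor, stood at 3.82, 3.77 and 3.71 log2 RPKM in Naive, 2.54, 2.22 and 1.71 after OVA, 1.19, 1.47 and 1.58 after ERY1-OVA, 0.68 and 2.05 after SIINFEKL, and 1.48, 0.20 and 0.76 after TER119-SIINFEKL. No antigen library reached the Naive range. It fell by -1.61 ± 0.35, -2.35 ± 0.35, -2.40 ± 0.39 and -2.96 ± 0.35 in that order (adjusted p = 0.002, 0.00015, 0.0015 and 1.7e-05). The other chain, Ifngr1, fell after OVA (-0.91 ± 0.15, adjusted p = 0.00026), ERY1-OVA (-0.98 ± 0.15, adjusted p = 0.00018) and TER119-SIINFEKL (-1.34 ± 0.15, adjusted p = 9.3e-06).

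The type I receptor chain Ifnar2 rose after all 4 antigens (0.34 ± 0.09, 0.65 ± 0.09, 0.47 ± 0.10 and 0.41 ± 0.09, with adjusted p = 0.0078, 9e-05, 0.0078 and 0.0021 for OVA, ERY1-OVA, SIINFEKL and TER119-SIINFEKL). Ifnar1 rose after SIINFEKL (0.47 ± 0.11, adjusted p = 0.014) and was lower after TER119-SIINFEKL than after SIINFEKL (-0.70 ± 0.11, adjusted p = 0.00039). Among 7 ligand genes Ifng alone was tested, and it was not called against Naive after any antigen (1.77 ± 0.78 after OVA, adjusted p = 0.076).

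A list of 70 further interferon-stimulated genes outside the name rule had 67 tested. After OVA 13 rose and 27 fell (all genes 24.4% and 23.1%), after ERY1-OVA 23 rose and 15 fell (20.9% and 19%), after SIINFEKL 23 rose and 3 fell (7.58% and 8.34%), and after TER119-SIINFEKL 19 rose and 18 fell (24.6% and 23%). Rnf213, a large ubiquitin ligase, fell after OVA (-1.0 ± 0.13, adjusted p = 4.3e-05) and TER119-SIINFEKL (-1.24 ± 0.13, adjusted p = 6.5e-06). It also lay below its Naive range (5.35 to 5.48 log2 RPKM) after ERY1-OVA (4.74, 4.48 and 4.72), and stood at 5.25 and 5.52 after SIINFEKL. Slfn3, of the Schlafen family, rose after OVA (2.25 ± 0.27, adjusted p = 2.5e-05) and ERY1-OVA (2.02 ± 0.27, adjusted p = 8.1e-05). The peptide libraries lay above its Naive range (0.12 to 1.12 log2 RPKM) as well. They stood at 2.1 and 1.25 after SIINFEKL and 2.48, 2.69 and 2.57 after TER119-SIINFEKL. Casp4, an inflammatory caspase, rose after SIINFEKL (3.15 ± 0.47, adjusted p = 0.00081) and TER119-SIINFEKL (3.20 ± 0.42, adjusted p = 4e-05). The protein libraries lay above its Naive range (-1.43 to -0.21 log2 RPKM) as well. They stood at 1.04, 0.87 and 1.32 after OVA and 1.02, 2.29 and 2.23 after ERY1-OVA. Of 16 antigen presentation genes, 6 fell and 1 rose after OVA, 4 fell and 1 rose after ERY1-OVA, 7 fell and 1 rose after TER119-SIINFEKL, and none was called after SIINFEKL. Tapbp (tapasin) fell after OVA (-0.54 ± 0.11, adjusted p = 0.0012), and the immunoproteasome gene Psmb9 rose there (0.71 ± 0.14, adjusted p = 0.0014). Neither pattern was particular to OVA by value. Every antigen library lay below the Naive range of Tapbp (7.39 to 7.47 log2 RPKM) and above that of Psmb9 (5.92 to 6.24). After TER119-SIINFEKL Tapbp stood at 7.12, 6.94 and 6.82, and Psmb9 at 7.06, 6.62 and 6.73. Negative regulators of signalling had 4, 5, 2 and 4 of 12 lower after OVA, ERY1-OVA, SIINFEKL and TER119-SIINFEKL and none higher. The 12 tested sensing adaptors and kinases had 4, 2, 1 and 5 lower and 0, 2, 1 and 2 higher.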

How the data were processed

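Polyadenylated RNA of 14 libraries in 5 groups was sequenced with a stranded kit, per the labels' protocols. The authors deposited 1 table of log2 RPKM. Tools listed in the submitters' processing notes, with no role or order, are STAR 2.4.2, bcl2fastq 2.17.1.14 and edgeR, and the builds are GRCm38 and mm10. The counter, annotation, gene lengths, filters, prior count and normalization between libraries are not given in the sources used here, and a prior count would shrink differences of low genes. Base 2 was settled from the data, since RPKM times exon length (kb) then gave library sums of 1763892 to 2042614, against 22637275 to 37605390 for base e.

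Genes with a mean of at least 1 RPKM (9793 of 10106) were fitted with limma 3.58.1 in R 4.3.3 on the deposited values, two-sided, with 1 mean per group and an intensity trend in the prior variance (residual df 9, prior df 4.6). Calls are at a Benjamini-Hochberg adjusted p under 0.05 over all tested genes. Tests were checked on simulated data. Positions are from GENCODE for GRCm38 (10027 genes matched by identifier, 79 not) and promoters from RefSeq, GRCm38.p6. Tables and plots were made with pandas 2.3.3, matplotlib 3.10.9 and numpy 2.4.6 under Python 3.11.15.

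Results of 1 member are not reported here by name, though it is in the counts. The genes and lists were chosen with earlier results of these data known. Statistics are given for called genes without overlap (up to 6 per direction and comparison, by adjusted p) and for a core set. Of each pathway list, the 3 genes with the smallest adjusted p in a comparison were eligible, and only some are given. The negative regulators and the sensing adaptors and kinases have counts only, with no gene named. Statistics of other members are given in part, and these were named after their values were seen.

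Same-numbered libraries deviated together in TER119-SIINFEKL and Naive (correlations of 0.259, 0.322 and 0.3 over all genes). The reported values of that comparison come from the fit without pairing, which gave 25 lower and 3 higher. A fit with the replicate block gave 26 lower and 4 higher there. Alternatives were other scalings, pseudocounts, filters and moderation, array weights, a replicate block, fits of only the groups compared, a correction for length and GC content, and leaving out libraries. Fits that kept a single SIINFEKL library take its spread from the other groups.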

Additional observations from a re-analysis of the deposited data

Results flagged for a closer look

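In 26 entries the difference between targeted and soluble antigen differed between protein and peptide, by limma's interaction term at an adjusted p under 0.05. ERY1 targeted the protein and TER119 the peptide, so antigen form and targeting agent cannot be told apart. The values that follow are the effect with protein (ERY1-OVA minus OVA) minus the effect with peptide (TER119-SIINFEKL minus SIINFEKL), in log2 RPKM. Among transcription factors they were 1.48 for Stat2, 1.19 for Irf9, 0.87 for Irf7 and 0.67 for Irf1. Guanylate-binding proteins had 1.42 for Gbp9, 1.3 for Gbp8, 1.1 and 1.09 for the 2 entries of Gbp11, 1.08 for Gbp10, 1.05 for Gbp6, 0.98 for Gbp4 and 0.76 for Gbp7. The sensors Zbp1 and Ddx58 had 1.01 and 1.0. Values were 1.65 for Oas1b, 0.91 for Oas1c, 2.06 for Mx1, 1.31 for Cmpk2, 0.99 for Isg20, 0.92 for Ifi203, 1.19 for Trim30d, 0.85 for Trim30a, 0.99 for Parp14, 0.68 for Dtx3l and 0.72 for Herc6. Ifi30 alone was negative, at -1.44. The count of positive values was 17 without TER119-SIINFEKL 3 and 36 at the highest over fits without 1 library. Of the 14 such fits, the call was lost in 10 for Dtx3l, 8 for Isg20 and Irf1, 6 for Gbp10 and Gbp6, and 5 for Irf7. It was lost for Gbp7 without ERY1-OVA 2, SIINFEKL 2 or TER119-SIINFEKL 3, for Mx1 without OVA 2 or TER119-SIINFEKL 3, for Cmpk2 without SIINFEKL 2 and for Oas1c without SIINFEKL 1. The other 16 were called in all 14 fits. Without SIINFEKL 2 the values of Gbp6 and Gbp7 were 0.70 and 0.47, and without ERY1-OVA 3 that of Irf1 was 0.44. Both peptide groups differed between their libraries, as the plot of the 61 genes by library shows.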

How the results depend on the processing

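Array weights moved most counts: lower for OVA against SIINFEKL 20, TER119-SIINFEKL against Naive 44, TER119-SIINFEKL against SIINFEKL 36, TER119-SIINFEKL against ERY1-OVA 40 and ERY1-OVA against OVA 2; higher 14 for ERY1-OVA against OVA, 3 for SIINFEKL against Naive, 6 for TER119-SIINFEKL against Naive and 1 for TER119-SIINFEKL against ERY1-OVA; targeting effect higher for protein 41. A fit of only the groups compared gave SIINFEKL against Naive 5 higher and 1 lower, ERY1-OVA against Naive 25 lower, TER119-SIINFEKL against SIINFEKL 13 lower and 0 higher, and ERY1-OVA against OVA 1 lower. The length and GC correction gave ERY1-OVA against Naive 3 higher and 25 lower, ERY1-OVA against OVA 3 higher, TER119-SIINFEKL against Naive 1 higher, TER119-SIINFEKL against SIINFEKL 0 higher and OVA against SIINFEKL 1 higher. Of all 9716 genes in that fit, 1835 were higher and 2647 lower for ERY1-OVA against Naive. The other comparisons had 113, 2234, 1788 and 1982 genes higher, in that order. In ERY1-OVA against OVA, a pseudocount of 1 gave 1 higher and 1 lower, a filter at a mean RPKM of 3 the same, median-of-ratios rescaling 1 lower, and the fit without the SIINFEKL group 3 higher and 1 lower. OVA against Naive had 1 higher with quantile normalization, no trend, or without OVA 1 and TER119-SIINFEKL 1, and OVA against SIINFEKL 1 higher with quantile normalization or the filter at 3, which also gave SIINFEKL against Naive 1 lower. Without OVA 1 and TER119-SIINFEKL 1, TER119-SIINFEKL against SIINFEKL had 35 lower and the targeting effect was higher for protein in 38. The cause was not tested. Leaving out each library in turn moved the calls over all genes too. For ERY1-OVA against Naive they ran from 1368 to 2020 lower and from 1645 to 2154 higher. For the 61 genes it gave these ranges. OVA against Naive had 18 to 35 lower and 1 to 2 higher, ERY1-OVA against Naive 8 to 20 and 2 to 6, SIINFEKL against Naive 1 to 9 and 1 to 11, TER119-SIINFEKL against Naive 13 to 31 and 2 to 3. ERY1-OVA against OVA had 0 to 1 lower and 0 to 3 higher, TER119-SIINFEKL against SIINFEKL 9 to 35 and 0 to 1, TER119-SIINFEKL against ERY1-OVA 0 to 0 and 0 to 0, OVA against SIINFEKL 17 to 36 and 1 to 2. The targeting effect was higher for protein in 17 to 36 and lower in 1 to 2. With the replicate block the counts of lower and higher were 30 and 2 for OVA against Naive, 16 and 5 for ERY1-OVA, 2 and 8 for SIINFEKL, 22 and 1 for TER119-SIINFEKL against SIINFEKL and 31 and 2 for OVA against SIINFEKL, with no count moved by over 1.5 times. It ended the calls of Ifit1 in ERY1-OVA against Naive (-1.19) and Ifit3 in OVA against SIINFEKL (-1.37). Correlations of same-numbered libraries ran from -0.443 to 0.43 outside TER119-SIINFEKL against Naive, where they are given above. The main fit did not pair libraries by number in any comparison. Of 215 gene results, 90 of them called, none that was called changed sign; over settings other than leaving out 1 library, 2699 comparisons with the reported call agreed, 126 gained and 38 lost it, and over fits without 1 library 2807 agreed, 69 gained and 134 lost it. Depth is unknown, so what it limits cannot be given, and 2 libraries limit every SIINFEKL value.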
